A study of Homo sapiens with 24 samples.

Results

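The genes described here are 10 components of DNA damage signalling, namely the apical kinases ATM, ATR and PRKDC, the effector kinases CHEK1 and CHEK2, the histone H2AX, and the mediators and ubiquitin ligases MDC1, RNF8, RNF168 and TP53BP1. They were taken by name, with no threshold on measured values but with earlier results of these data known, and all 10 were found among the 57736 Ensembl genes of the count table and passed the filter on low counts in both series. RNA-seq was performed on 24 libraries of U87-T, a human glioblastoma cell line that carries a TERT transgene, in 8 groups of 3. The DAXX series compared WT with DAXX_KO and the ATRX series compared WT with ATRX_KO, each in control cells and in cells treated with etoposide, and each series had its own WT libraries. The WT cells carried an empty Cas9 vector together with the TERT transgene, and DAXX_KO and ATRX_KO were each 1 single-cell clone derived from U87-T. The paper describes both clones as positive for features of the alternative lengthening of telomeres (ALT), isolated as survivors of continuous passage. The effect of losing DAXX or ATRX, the acquired ALT-like state and other properties of the 1 clone studied therefore cannot be told apart. Control cells are named untreated in the labels and DMSO in the paper, and the dose and duration of etoposide for these libraries are not given in the sources used here. For the DAXX_KO libraries the titles name DAXX but a genotype tag names ATRX, and grouping followed the titles.

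DNA breaks and stalled forks activate kinases of the phosphatidylinositol 3-kinase-related family. ATM and DNA-PKcs, the product of PRKDC, respond to DNA double-strand breaks, and ATR responds to single-stranded DNA coated by RPA. These kinases phosphorylate H2AX in chromatin and activate CHEK2 (mainly by ATM) and CHEK1 (mainly by ATR), which slow the cell cycle. Phosphorylated H2AX, known as γH2AX, is bound by MDC1, which brings RNF8 and then RNF168 to ubiquitinate histones, and 53BP1, the product of TP53BP1, then binds the modified chromatin and favours end joining. Etoposide traps topoisomerase II on DNA and so produces breaks that start this signalling. Most of this signalling acts through phosphorylation and ubiquitination of proteins, and these libraries measure mRNA alone.

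The libraries were made by QuantSeq, which counts reads at the 3′ ends of polyadenylated transcripts, and levels are given as CPM (counts relative to the library total) scaled by the TMM method within a series. The DAXX series had library totals of 6928950 to 10410014 counts and the ATRX series of 10124817 to 13298557, so the ATRX series gives the smaller counting error. A gene at 0 counts could still have a level of up to 3 counts, which was 0.297 to 0.405 CPM (DAXX series) and 0.217 to 0.301 CPM (ATRX series), and this floor covers counting error only. The 10 genes were far above it, from 45 counts for MDC1 to 3813 counts for PRKDC in a library. The targeted genes were lower in their knockouts. DAXX mRNA was 35.3, 33.5 and 32.9 CPM in WT control and 6.25, 4.62 and 6.62 CPM in DAXX_KO control (log2 fold change −2.53 ± 0.15 (SE), n = 3 per group, edgeR adjusted p = 7.34e-11), and ATRX mRNA was 187, 193 and 196 CPM in WT control against 87.5, 78.1 and 76.1 CPM in ATRX_KO control. ATRX mRNA in DAXX_KO control was 414, 380 and 364 CPM. Among markers of the line, VIM (1190 to 5980 CPM) and CD44 (346 to 1060 CPM) were present in all 24 libraries, whereas the astrocyte marker GFAP exceeded 3 counts in 1 library and S100B was at 0 counts in all. Of the other line markers, NES exceeded 3 counts in 24 libraries, CHI3L1 in 23, OLIG2 in 14 and SOX2 in 13. Markers of leukocytes, epithelium, neurons and oligodendrocytes (PTPRC, EPCAM, RBFOX3 and MOG) reached at most 4.92 CPM. They were detected, with more than 3 counts in 16, 16, 23 and 24 libraries. The highest levels of SOX2 (4.59 CPM) and OLIG2 (1.71 CPM) were below that of MOG (4.92 CPM). In such bulk samples fewer cells of a state and less RNA per cell cannot be told apart.

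Among the genes that fell with etoposide, described next, promoters are shown for H2AX, CHEK1 and MDC1 because they carry CCAAT or TTTGAA, the former known as a binding site of the factor NF-Y and the latter as the CHR element of many cell cycle promoters. The sequences are from RefSeq on GRCh38.p14, cover the 250 bases before the annotated start site, run 5′ to 3′ on the strand of the gene, and have matches on either strand in capitals (a match on the opposite strand reads ATTGG or TTCAAA). H2AX lies at chr11:119095466-119095715 on the minus strand, CHEK1 at chr11:125626106-125626355 on the plus strand and MDC1 at chr6:30717282-30717531 on the minus strand.
H2AX: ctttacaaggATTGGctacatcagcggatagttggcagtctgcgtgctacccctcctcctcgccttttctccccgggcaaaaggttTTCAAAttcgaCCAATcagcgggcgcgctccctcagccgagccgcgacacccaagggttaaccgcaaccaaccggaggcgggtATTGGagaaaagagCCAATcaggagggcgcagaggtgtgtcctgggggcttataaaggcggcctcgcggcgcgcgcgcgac
CHEK1: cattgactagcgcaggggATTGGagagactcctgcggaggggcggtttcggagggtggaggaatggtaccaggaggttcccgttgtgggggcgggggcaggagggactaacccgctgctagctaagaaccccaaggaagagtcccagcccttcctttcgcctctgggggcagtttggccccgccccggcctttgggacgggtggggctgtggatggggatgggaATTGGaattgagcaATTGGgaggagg
MDC1: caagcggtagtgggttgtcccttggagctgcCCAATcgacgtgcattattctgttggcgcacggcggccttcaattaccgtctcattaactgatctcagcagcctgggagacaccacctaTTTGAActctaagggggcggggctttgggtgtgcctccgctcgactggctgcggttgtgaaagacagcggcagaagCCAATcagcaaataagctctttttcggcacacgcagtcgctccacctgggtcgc
The 5 motifs, named by their letters, were searched on both strands of 300 bases from 250 before to 50 after the start site. A RefSeq promoter was available here for 9 of the 10 genes, PRKDC being the exception. A single promoter was searched per gene, whereas the shares of all promoters can include several promoters of a gene. CCAAT was found in 7 of the 9 (ATM, CHEK1, CHEK2, MDC1, H2AX, RNF8 and TP53BP1), against 34.6% of all 35093 promoters. H2AX held 4 matches, at positions −240, −153, −81 and −67 from the start site. TTTGAA was found in H2AX (position −164) and in MDC1 (position −130), against 15.2% of all promoters. TTTGGCGC, TTTCCCGC and TTCGAA, present in 0.653%, 1.63% and 1.45% of all promoters, were found in 0 of the 9, and ATR and RNF168 held none of the 5. CCAAT was present in the promoters of genes that fell with etoposide and of genes that were not called, such as CHEK2 and TP53BP1.

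In WT cells etoposide lowered the mRNA of 6 of the 10 genes (DAXX series) and of 5 (ATRX series). In both series PRKDC, CHEK1, MDC1, H2AX and RNF168 fell. The largest change among the 10 was that of H2AX, which was 5.02-fold lower with etoposide (DAXX series) and 5.36-fold lower (ATRX series). ATM, CHEK2, RNF8 and TP53BP1 did not pass the test in WT cells of either series. Among all genes tested, 30.6% were called lower and 29.6% higher (DAXX series), and 29.8% lower and 31.7% higher (ATRX series). With edgeR, 0 of the 10 genes were higher with etoposide in WT or knockout cells of either series, and this was 0 as well at an unadjusted p under 0.05 and with DESeq2.

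**Figure D1:**
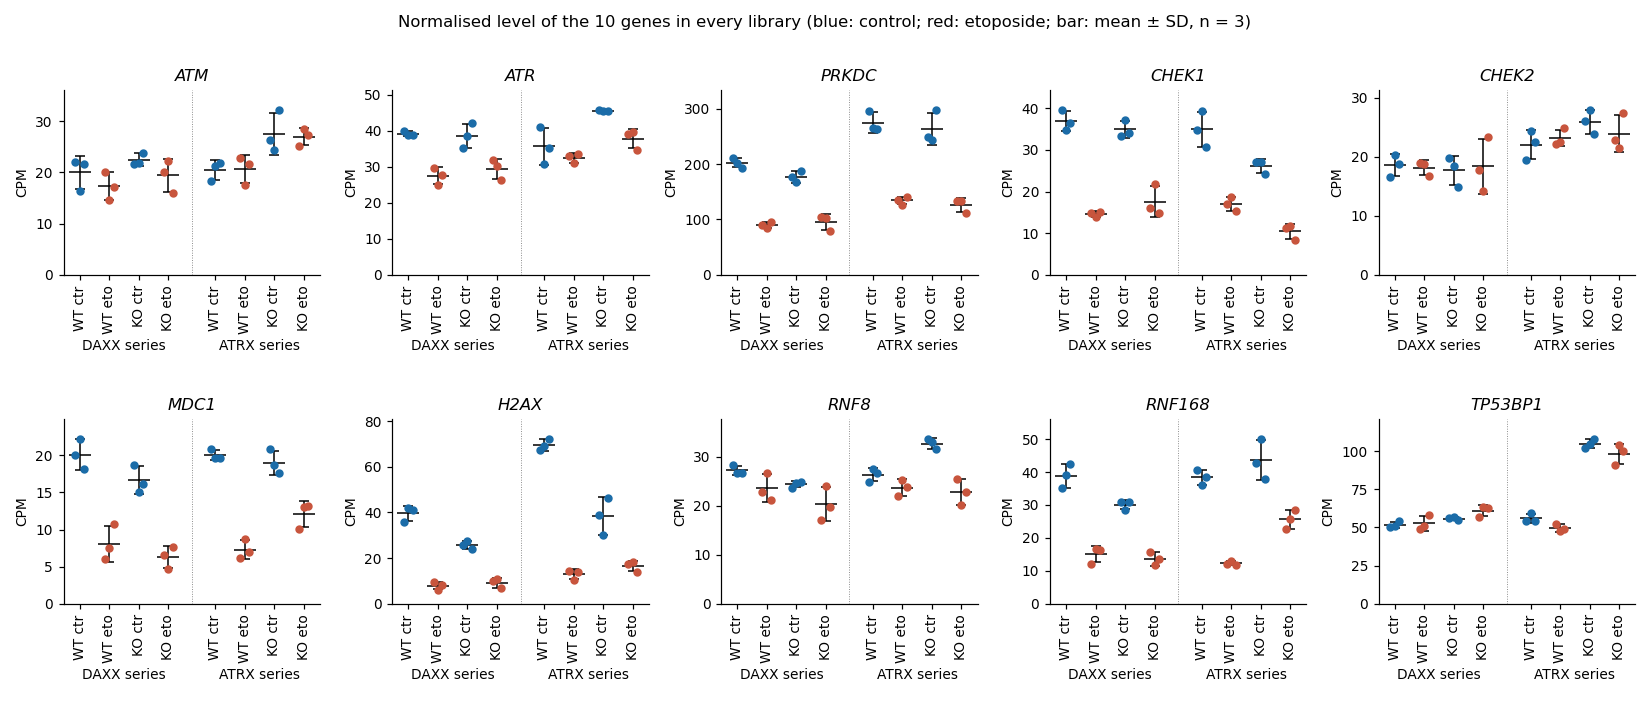
Level of each of the 10 genes in CPM (y axis, linear, from 0) in every library of the 8 groups (x axis; ctr, control; eto, etoposide), with 1 point a library and the mean ± SD of 3 libraries. CPM were scaled within each series. H2AX was 67.3 to 72.2 CPM in WT control of the ATRX series and 10.3 to 14.5 CPM with etoposide, and TP53BP1 was 91.1 to 108 CPM in ATRX_KO against 47.8 to 59.5 CPM in WT.

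H2AX is at chromosome 11, 118964584 to 118966175, minus strand of GRCh37, where all positions below are given. Its mRNA is known in a polyadenylated form and in a shorter form that ends in a stem-loop as other histone mRNAs do, and these libraries capture the polyadenylated form. In WT cells of the DAXX series H2AX was 36, 41.8 and 41.3 CPM in control and 9.41, 6.19 and 8.1 CPM with etoposide. In WT cells of the ATRX series it was 67.3, 69.2 and 72.2 CPM in control and 14.5, 10.3 and 14.1 CPM with etoposide. Every etoposide library was below every control library in both series. Here and below, a lack of overlap between groups only describes the libraries, and its share over all genes was not computed. The log2 fold changes were −2.33 ± 0.15 (SE, adjusted p = 1.23e-10) and −2.42 ± 0.15 (SE, adjusted p = 6.29e-10).

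Of the apical kinases, PRKDC fell with etoposide in both series. PRKDC (chromosome 8, 48685672 to 48872738, minus strand) encodes the catalytic subunit of the DNA-dependent protein kinase, which acts in non-homologous end joining. It was 211, 203 and 194 CPM in WT control and 90.6, 83.6 and 94.7 CPM in WT etoposide of the DAXX series (log2 fold change −1.18 ± 0.09 (SE), adjusted p = 1.05e-09). PRKDC levels of the ATRX series were 297, 265 and 264 CPM and 135, 127 and 141 CPM (−1.03 ± 0.09 (SE), adjusted p = 5.82e-08). The groups did not overlap in either series. ATR (chromosome 3, 142167849 to 142297575, minus strand) fell in WT cells of the DAXX series, from 40, 38.7 and 38.9 CPM to 29.6, 25 and 27.8 CPM (−0.51 ± 0.10 (SE), adjusted p = 0.000163). ATR in the ATRX series was 41, 30.8 and 35.1 CPM in control and 33, 30.9 and 33.6 CPM with etoposide, with overlapping groups and a log2 difference of −0.13 (95% interval −0.35 to 0.08, adjusted p = 0.262). ATM (chromosome 11, 108093771 to 108239829, plus strand) was 14.6 to 22.8 CPM over the 12 WT libraries of both series. Its log2 difference was −0.22 (95% interval −0.53 to 0.09, adjusted p = 0.219, DAXX series) and 0.02 (−0.26 to 0.29, adjusted p = 0.919, ATRX series). The use of strand in counting is not given in the sources used here. C11orf65, which lies over the 3′ end of ATM on the opposite strand, had group means of at most 1.33 CPM.

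Of the effector kinases, CHEK1 fell and CHEK2 was not called. CHEK1 (chromosome 11, 125495058 to 125546150, plus strand), the kinase that restrains CDC25 phosphatases when replication is stalled, was 39.6, 34.8 and 36.4 CPM in WT control and 14.8, 13.8 and 15.1 CPM in WT etoposide of the DAXX series. Its ATRX series levels were 34.8, 39.3 and 30.7 CPM and 17.1, 18.7 and 15.3 CPM. The log2 fold changes were −1.34 ± 0.13 (SE, adjusted p = 1.9e-08) and −1.04 ± 0.13 (SE, adjusted p = 2.62e-06), and the groups did not overlap. STT3A, which overlaps CHEK1 on the same strand, was 48.7 ± 4.26 CPM (SD, n = 3) in WT control of the DAXX series. With etoposide STT3A was 45.4 ± 2.02 CPM in these WT cells, and its part in the CHEK1 counts was not tested. CHEK2 (chromosome 22, 29083731 to 29138410, minus strand), which carries the ATM signal to p53 and CDC25 proteins, was 16.6 to 24.8 CPM over the 12 WT libraries. Its log2 differences were −0.02 (95% interval −0.35 to 0.31, adjusted p = 0.912) and 0.07 (−0.18 to 0.32, adjusted p = 0.638), and the groups overlapped. CHEK2 has 7 annotated pseudogene copies, 6 of them in the count table, and whether reads were shared between CHEK2 and these copies was not tested. The copy CHEK2P2 had 0 to 2 counts in every library. HSCB, which overlaps CHEK2 on the opposite strand, was 17.4 ± 0.287 CPM (SD, n = 3) in WT control and 26.4 ± 1.36 CPM in WT etoposide of the DAXX series, and its part in the CHEK2 counts was not tested.

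Both MDC1 and RNF168 fell, whereas RNF8 and TP53BP1, which act before and after RNF168, were not called. MDC1 (chromosome 6, 30667584 to 30685224, minus strand), the scaffold that binds γH2AX, was 20, 22.2 and 18.1 CPM in WT control and 6.02, 7.5 and 10.7 CPM in WT etoposide of the DAXX series. MDC1 in the ATRX series was 20.9, 19.7 and 19.6 CPM and 6.1, 8.69 and 7.03 CPM. RNF168 (chromosome 3, 196195654 to 196230639, minus strand), the ligase that ubiquitinates H2A, was 35.1, 39.1 and 42.3 CPM in WT control and 12.2, 16.7 and 16.3 CPM with etoposide in the DAXX series. Levels of RNF168 in the ATRX series were 40.7, 36.1 and 38.4 CPM and 12, 13.1 and 11.8 CPM. Control and etoposide libraries did not overlap for either gene. TUBB, a tubulin gene that overlaps MDC1 on the opposite strand, was 2760 ± 189 CPM (SD, n = 3) in WT control and 474 ± 5.85 CPM in WT etoposide of the DAXX series, and its part in the MDC1 counts was not tested. The log2 fold changes of MDC1 were −1.33 ± 0.19 (SE, adjusted p = 4.38e-06) and −1.47 ± 0.15 (SE, adjusted p = 1.81e-07), and those of RNF168 were −1.36 ± 0.13 (SE, adjusted p = 2.05e-08) and −1.64 ± 0.12 (SE, adjusted p = 4.23e-09). RNF8 (chromosome 6, 37321755 to 37362510, plus strand), the first ligase of the cascade, had log2 differences of −0.21 (95% interval −0.45 to 0.04, adjusted p = 0.143) and −0.15 (−0.37 to 0.06, adjusted p = 0.208). TP53BP1 (chromosome 15, 43695259 to 43802926, minus strand) was 50.4, 51.2 and 54.1 CPM in WT control and 49.1, 50.8 and 58.3 CPM in WT etoposide of the DAXX series (0.02, 95% interval −0.15 to 0.19, adjusted p = 0.825). In the ATRX series its log2 difference was −0.17 (adjusted p = 0.0731), and it passed the test without etoposide replicate 1 of WT (−0.23, adjusted p = 0.0416) or without etoposide replicate 1 of ATRX_KO (−0.18, adjusted p = 0.0439).

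**Figure D2:**
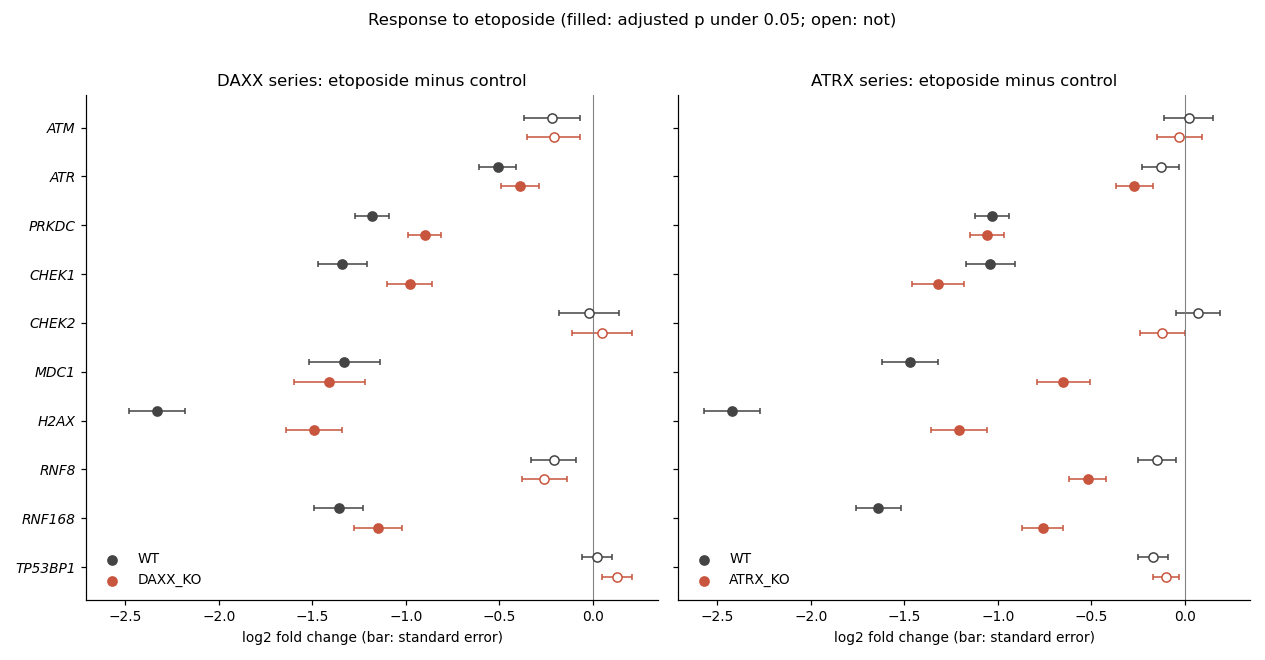
Log2 fold change with etoposide (x axis) for each gene (y axis) in WT (dark) and knockout cells (red) of the DAXX series (left) and the ATRX series (right). Bars are the standard error of the edgeR fit over 12 libraries a series, and filled points have an adjusted p under 0.05. H2AX moved from −2.42 in WT to −1.21 in ATRX_KO, and from −2.33 to −1.49 in DAXX_KO.

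The knockouts were next compared with WT in control cells. In DAXX_KO, H2AX and RNF168 were lower and 0 of the 10 genes were higher with edgeR (0 as well at an unadjusted p under 0.05 and with DESeq2). H2AX was 25.6, 27.7 and 24.1 CPM in DAXX_KO, below each WT library (−0.62 ± 0.13 (SE), adjusted p = 0.000558). RNF168 was 31, 28.4 and 30.9 CPM, also below each WT library (−0.36 ± 0.12 (SE), adjusted p = 0.0139). Of all genes tested, 26.6% were lower and 26.7% higher in DAXX_KO, so the 10 genes were called no more often than all genes. The RNF168 call was lost without control replicate 3 of WT (−0.30, adjusted p = 0.07) and without control replicate 2 of DAXX_KO (−0.32, adjusted p = 0.063). Scaling by library totals alone moved the median of all genes by 0.18, so that 66.2% rather than 50.1% of the calls were higher, and RNF168 was then not called (−0.18, adjusted p = 0.205) while TP53BP1 was (0.29, adjusted p = 0.00477). PRKDC was 176, 167 and 188 CPM in DAXX_KO, below each WT library, and missed the threshold (−0.20, adjusted p = 0.0677). PRKDC passed with DESeq2 (−0.23, adjusted p = 0.0256) and without etoposide replicate 3 of DAXX_KO (−0.20, adjusted p = 0.0158). Over the other settings its log2 difference ranged from −0.23 to −0.01, and its highest adjusted p in any fit was 0.935.

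In ATRX_KO, 4 of the 10 genes were higher and 2 were lower in control cells, against 20.8% and 21% of all genes tested. TP53BP1, which encodes 53BP1, was 54, 59.5 and 54.3 CPM in WT and 102, 105 and 108 CPM in ATRX_KO. This was 1.88-fold higher (0.91 ± 0.08 (SE), adjusted p = 6.13e-08), and the lowest ATRX_KO library was far above the highest WT library. TUBGCP4, which lies over its 3′ end on the opposite strand, was 30.3 ± 1.95 CPM (SD, n = 3) in WT and 28.4 ± 2.9 CPM in ATRX_KO. H2AX was lower, at 38.8, 30.1 and 46.4 CPM against 67.3 to 72.2 CPM in WT (−0.85 ± 0.14 (SE), adjusted p = 9.32e-05).

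The other calls in ATRX_KO control cells were smaller. ATM was 18.3, 21.3 and 21.8 CPM in WT and 26.3, 24.3 and 32.2 CPM in ATRX_KO (0.43 ± 0.13 (SE), adjusted p = 0.0103). ATR was 45.7, 45.5 and 45.5 CPM in ATRX_KO, above each WT library (0.35 ± 0.10 (SE), adjusted p = 0.00843). RNF8 was 24.8, 27.5 and 26.7 CPM in WT and 33.6, 33 and 31.5 CPM in ATRX_KO (0.31 ± 0.10 (SE), adjusted p = 0.0182). CHEK1 was lower, at 27.1, 27 and 24.3 CPM in ATRX_KO (−0.42 ± 0.12 (SE), adjusted p = 0.0119). The 2 groups did not overlap for any of these 4 genes. Genes that were not called could also lack overlap, as RNF8 (edgeR adjusted p = 0.277) and TP53BP1 (adjusted p = 0.284) did in DAXX_KO control. Each of these 4 calls was lost when 1 library was left out. Without control replicate 1 of WT, RNF8 was 0.28 (adjusted p = 0.0715) and ATM 0.37 (adjusted p = 0.0537), and ATM was 0.31 (adjusted p = 0.0608) without control replicate 3 of ATRX_KO. Without control replicate 2 of WT, ATR was 0.26 (adjusted p = 0.0636) and CHEK1 −0.33 (adjusted p = 0.0761). The other genes, PRKDC (−0.06), CHEK2 (0.23), MDC1 (−0.08) and RNF168 (0.18), were not called.

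**Figure D3:**
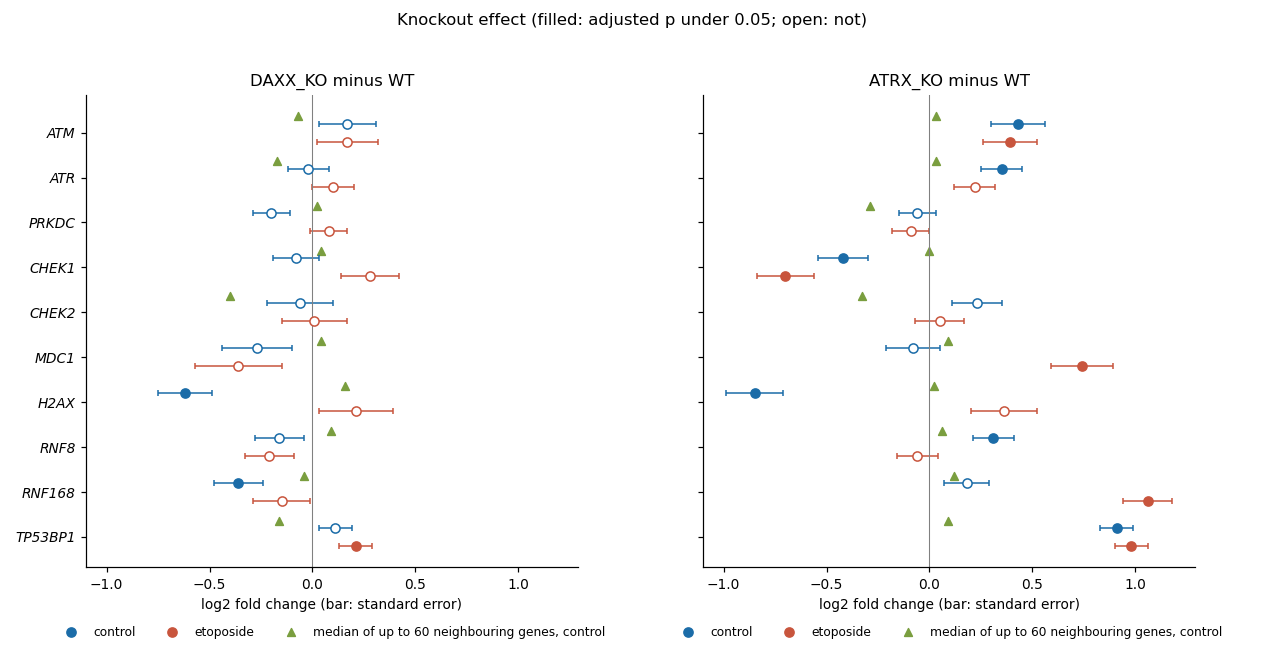
Log2 fold change of knockout against WT (x axis) for each gene (y axis) in control (blue) and etoposide (red) for DAXX_KO (left) and ATRX_KO (right), with the standard error of the edgeR fit and filled points for an adjusted p under 0.05. Triangles are the median log2 fold change, in control, of up to 60 tested genes beside each gene on its chromosome. TP53BP1 was 0.91 in ATRX_KO while its neighbours had a median of 0.09.

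Because each knockout is 1 clone and DNA copy number was not analysed here, each gene was set beside up to 30 tested genes on each side of it, which gave 60 neighbours for each gene but RNF168, with 56 (DAXX series) and 57 (ATRX series). For TP53BP1 in ATRX_KO the median of 60 neighbours was 0.09, against its own 0.91. For H2AX the median was 0.16 in DAXX_KO and 0.02 in ATRX_KO, against −0.62 and −0.85 for H2AX itself. The neighbours of CHEK2 had a median of −0.40 in DAXX_KO and −0.33 in ATRX_KO, whereas CHEK2 itself was at −0.06 and 0.23. The neighbours of PRKDC had a median of −0.29 in ATRX_KO, and PRKDC was at −0.06. All other neighbourhood medians in control were between −0.17 and 0.12.

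Differences between the knockouts were tested in 1 model of all 24 libraries. The knockout effect in control cells differed for 4 genes, which were all lower in the DAXX series than in the ATRX series, and 0 were higher (0 as well at an unadjusted p under 0.05 and with DESeq2). TP53BP1 differed by −0.80 ± 0.11 (SE, adjusted p = 1.34e-06), RNF168 by −0.54 ± 0.16 (adjusted p = 0.0118), RNF8 by −0.47 ± 0.15 (adjusted p = 0.0185) and ATR by −0.37 ± 0.14 (adjusted p = 0.0351). Of all genes tested, 17.2% were called lower and 17% higher in this comparison. The H2AX effect was not called different (0.24, 95% interval −0.18 to 0.66, adjusted p = 0.406). The ATR call was lost without any 1 of 6 control libraries, with adjusted p of 0.0627 and 0.102 without WT replicate 1 and DAXX_KO replicate 1 of the DAXX series, 0.0603 without DAXX_KO replicate 2, and 0.102, 0.0542 and 0.05 without WT replicate 2, WT replicate 3 and ATRX_KO replicate 3 of the ATRX series. With library totals alone 62.7% rather than 49.7% of the calls were higher, the median of all genes moved by 0.12, and neither RNF8 (−0.35, adjusted p = 0.0809) nor ATR (−0.25, adjusted p = 0.182) was called, while CHEK1 was (0.46, adjusted p = 0.0437).

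WT control libraries of the series differed for 2 of the 10 genes as well, which gives a scale for differences between sets of libraries of the same parental line. H2AX was lower in WT of the DAXX series than in WT of the ATRX series by −0.77 ± 0.14 (SE, adjusted p = 0.000573), and PRKDC by −0.40 ± 0.09 (SE, adjusted p = 0.0059), while 0 genes were higher with edgeR (0 as well at an unadjusted p under 0.05 and with DESeq2). Of all genes tested, 7.22% were called lower and 6.01% higher. This H2AX difference between WT sets was of a size similar to its knockout effects of −0.62 and −0.85, which were measured within a series. With library totals alone 29.3% rather than 45.4% of the calls were higher. The WT response to etoposide was called different between the series for 0 of the 10 genes, against 1.42% of all genes higher and 1.73% lower; at an unadjusted p under 0.05 it was 0 higher and 1 lower, and with DESeq2 0. With library totals alone 31.3% rather than 45.1% of those calls over all genes were higher.

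In knockout cells etoposide lowered 6 of the 10 genes in DAXX_KO and 7 in ATRX_KO. The shares of all genes called lower and higher were 27.8% and 26.8% in DAXX_KO and 25.2% and 24.3% in ATRX_KO. The genes that fell in WT cells of both series, PRKDC, CHEK1, MDC1, H2AX and RNF168, also fell in both knockouts. ATR fell in DAXX_KO (−0.39 ± 0.10 (SE), adjusted p = 0.00228) and in ATRX_KO (−0.27 ± 0.10 (SE), adjusted p = 0.0298). The ATR call in ATRX_KO was lost with DESeq2 (−0.25, adjusted p = 0.0528) and without any 1 of control replicates 1, 2 and 3 (adjusted p = 0.0565, 0.0551 and 0.0547) or etoposide replicate 3 of ATRX_KO (−0.22, adjusted p = 0.118). RNF8 fell in ATRX_KO, from 33.6, 33 and 31.5 CPM to 25.4, 20.2 and 22.7 CPM (−0.52 ± 0.10 (SE), adjusted p = 0.000336). In DAXX_KO RNF8 was not called (−0.26, adjusted p = 0.078), and was called without etoposide replicate 2 of DAXX_KO (−0.40, adjusted p = 0.00834).

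The interaction asks whether the response to etoposide in a knockout differs from that in WT, and it was called for H2AX in both series. H2AX reached 9.99, 10.7 and 6.72 CPM in DAXX_KO and 17.4, 18.4 and 14.1 CPM in ATRX_KO with etoposide. Its log2 response was −1.49 in DAXX_KO, 64.2% of the WT response, and −1.21 in ATRX_KO, 49.9% of it. The interaction was 0.83 ± 0.22 (SE, adjusted p = 0.0164) for DAXX_KO and 1.21 ± 0.21 (SE, adjusted p = 0.00124) for ATRX_KO. H2AX started from a lower level in control cells of both knockouts and its etoposide levels overlapped those of WT, with log2 differences of 0.21 (95% interval −0.17 to 0.59, adjusted p = 0.342) and 0.36 (0.01 to 0.71, adjusted p = 0.0863). The DAXX series call was lost without etoposide replicate 2 of WT (0.68, adjusted p = 0.0621). In the ATRX series the etoposide difference passed the test without control replicate 2 or 3 of ATRX_KO (0.36 in both, adjusted p = 0.0452 and 0.0493) and without its etoposide replicate 3 (0.47, adjusted p = 0.0378).

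MDC1 and RNF168 had interactions in the ATRX series, where both fell less with etoposide in ATRX_KO than in WT. MDC1 was 20.8, 18.7 and 17.6 CPM in ATRX_KO control and 10.1, 13 and 13.2 CPM in ATRX_KO etoposide, and RNF168 was 42.6, 50 and 38 CPM and 22.7, 25.6 and 28.5 CPM. In etoposide both genes were above every WT library (MDC1 0.74 ± 0.15 (SE), adjusted p = 0.000691; RNF168 1.06 ± 0.12 (SE), adjusted p = 2.64e-06). The log2 responses were 44.2% of the WT response for MDC1 and 46.5% for RNF168. The interactions were 0.82 ± 0.20 (SE, adjusted p = 0.0113) and 0.88 ± 0.16 (SE, adjusted p = 0.00191). TUBB was 568 ± 20 CPM (SD, n = 3) in WT etoposide and 803 ± 37.2 CPM in ATRX_KO etoposide. With etoposide in the DAXX series TUBB was 474 ± 5.85 CPM in WT and 544 ± 18.5 CPM in DAXX_KO. In DAXX_KO, MDC1 was 18.7, 15 and 16.2 CPM in control and 6.58, 4.66 and 7.61 CPM with etoposide, and RNF168 was 31, 28.4 and 30.9 CPM and 15.8, 11.6 and 13.5 CPM. Their interactions in the DAXX series were −0.09 (95% interval −0.66 to 0.48, adjusted p = 0.885) and 0.22 (−0.17 to 0.61, adjusted p = 0.492). The test of the difference between the 2 interactions did not pass for MDC1 (−0.93, 95% interval −1.64 to −0.22, adjusted p = 0.149) or RNF168 (−0.68, −1.20 to −0.16, adjusted p = 0.147), so a difference between the knockouts was not shown.

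The interaction counts were 1 gene higher and 0 lower for DAXX_KO and 3 higher and 0 lower for ATRX_KO. Of all genes tested, 8.38% were higher and 5.79% lower (DAXX_KO), and 8.36% higher and 7.64% lower (ATRX_KO). The counts of 0 were from edgeR, with 0 and 1 gene lower at an unadjusted p under 0.05 and 0 in both with DESeq2. With library totals alone the median of all genes in the DAXX interaction moved by −0.11, and 36.8% rather than 59.1% of the calls were higher. PRKDC was called in the DAXX interaction without etoposide replicate 3 of DAXX_KO (0.40, adjusted p = 0.011, against 0.28 and 0.164 with it), and RNF8 in the ATRX interaction without etoposide replicate 1 of ATRX_KO (−0.45, adjusted p = 0.0371, against −0.37 and 0.0906). The difference between the interactions of the 2 series was called for 0 of the 10 genes with edgeR, against 1.92% of all genes higher and 1.08% lower. At an unadjusted p under 0.05 it was 1 higher and 2 lower, and with DESeq2 0. With library totals alone 34.7% rather than 64% of those calls over all genes were higher, and their median moved by −0.13.

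With etoposide, the knockout differed from WT for 1 gene in DAXX_KO and 5 in ATRX_KO. TP53BP1 was higher in DAXX_KO, at 56.9, 63.2 and 62.7 CPM against 49.1, 50.8 and 58.3 CPM in WT (0.21 ± 0.08 (SE), adjusted p = 0.0346), with overlapping groups, and 0 genes were lower with edgeR (0 as well at an unadjusted p under 0.05 and with DESeq2). That call was lost with DESeq2 (0.19, adjusted p = 0.0961) and when etoposide replicate 1 or 2 of WT (0.16 and 0.18, adjusted p = 0.151 and 0.118) or replicate 2 or 3 of DAXX_KO (0.19 and 0.20, adjusted p = 0.086 and 0.0773) was left out. Other genes gained a call when 1 DAXX_KO etoposide library was left out, RNF8 without replicate 2 (−0.35, adjusted p = 0.0205), and CHEK1 (0.39, adjusted p = 0.0223) and PRKDC (0.21, adjusted p = 0.0321) without replicate 3. Of all genes tested, 27.9% were higher and 25.2% lower in DAXX_KO. In ATRX_KO, ATM, MDC1, RNF168 and TP53BP1 were higher and CHEK1 was lower, against 23% and 22.9% of all genes. TP53BP1 was 52.4, 47.8 and 49 CPM in WT etoposide and 91.1, 104 and 100 CPM in ATRX_KO etoposide (0.98 ± 0.08 (SE), adjusted p = 2.98e-08). CHEK1 was 17.1, 18.7 and 15.3 CPM in WT etoposide and 11.2, 11.8 and 8.44 CPM in ATRX_KO (−0.70 ± 0.14 (SE), adjusted p = 0.000589). ATM was 0.39 ± 0.13 (SE, adjusted p = 0.0191), a call lost without etoposide replicate 2 of WT (0.31, adjusted p = 0.0812) or of ATRX_KO (0.35, adjusted p = 0.0706). With library totals alone the median of all genes moved by 0.10, and 60.2% rather than 50.1% of the calls were higher in ATRX_KO.

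The partners of the 10 genes were counted in lists written from general knowledge. Of all genes tested, 30.6% fell and 29.6% rose with etoposide in WT of the DAXX series, and 29.8% fell and 31.7% rose in WT of the ATRX series. In control cells 26.6% were lower and 26.7% higher in DAXX_KO, and 21% lower and 20.8% higher in ATRX_KO. Of 18 damage sensors and kinase activators, which include the MRN complex, the Ku proteins, the clamp loader and the RPA subunits, 14 fell and 2 rose with etoposide in WT (DAXX series), and 12 fell and 2 rose (ATRX series). The list medians were −0.87 and −0.82, against 0.02 and 0.07 for all genes. In DAXX_KO control cells 11 of the 18 were lower and 2 higher (median −0.38, against 0.02), and in ATRX_KO 3 were lower and 4 higher (median −0.04, against 0.02). RPA1, a subunit of the single-strand binding protein that recruits ATR, was lower in both knockouts (−0.64 ± 0.08 (SE), adjusted p = 6.71e-07, and −0.86 ± 0.09 (SE), adjusted p = 7.11e-07) and had positive interactions of 0.47 and 0.52. XRCC5, which encodes Ku80 and recruits DNA-PKcs to DNA ends, had interactions of 0.67 ± 0.11 (SE, adjusted p = 0.000247) and 0.40 ± 0.11 (SE, adjusted p = 0.0241). Over the 18 genes, 5 were higher and 13 not called in the DAXX interaction, where 8.38% of all genes were higher. In the ATRX interaction 2 were higher, 1 was lower and 15 were not called, where 8.36% of all genes were higher and 7.64% lower.

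Of 16 partners in the ubiquitin and 53BP1 pathway, which include the BRCA1-A complex and shieldin, 9 fell and 3 rose with etoposide in WT of each series (medians −0.44 in both, against 0.02 and 0.07 for all genes, of which 30.6% and 29.8% fell). In control cells 6 of the 16 were lower and 2 higher in DAXX_KO (median −0.19), where 26.6% of all genes were lower and 26.7% higher. In ATRX_KO 1 was lower and 2 higher (median −0.01), against 21% and 20.8% of all genes. Of 9 checkpoint effectors and phosphatases, which include the CDC25 phosphatases, 5 fell and 2 rose with etoposide in the WT cells of the DAXX series (median −0.29), and 4 fell and 1 rose in those of the ATRX series (median −0.09), against 30.6% and 29.8% of all genes that fell and 29.6% and 31.7% that rose. In control cells 5 of the 9 were lower and 4 not called in DAXX_KO (median −0.41, with 26.6% of all genes lower), and 6 were lower and 3 not called in ATRX_KO (median −0.30, with 21% lower). PPM1D, the phosphatase that removes damage-induced phosphates and is a target of p53, had interactions of −0.75 ± 0.17 (SE, adjusted p = 0.00468) and −0.76 ± 0.17 (SE, adjusted p = 0.00515). Over the 9 genes, 2 were higher and 1 lower in the DAXX interaction, against 8.38% and 5.79% of all genes. In the ATRX interaction 2 were lower and 7 not called, with 7.64% of all genes lower. Of the 6 other kinases of the family and their TTT chaperone, etoposide lowered 3 in WT of the DAXX series, with a list median of −0.33, and 2 in WT of the ATRX series, with one of −0.16, against 30.6% and 29.8% of all genes and medians of 0.02 and 0.07. The 2 of 6 in the ATRX series is near the share of all genes. In control cells 3 of the 6 were lower and 1 higher in DAXX_KO (median −0.35), against 26.6% and 26.7% of all genes (median 0.02). In ATRX_KO 1 was lower and 3 higher (median 0.20), against 21% and 20.8% of all genes (median 0.02). The counts of 1 were below the shares of all genes.

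Proliferation genes moved beside these results. Of 15 such genes, 14 fell with etoposide in WT of each series (medians −2.85 and −2.55), where 30.6% and 29.8% of all genes fell, led by PLK1 (−4.77 and −4.21), CCNA2 (−4.48 and −4.15) and BUB1 (−4.67 and −4.14), which act in mitosis or S phase. In control cells 13 were lower and 1 higher in DAXX_KO (median −0.44), and 12 were lower in ATRX_KO (median −0.41), where 26.6% and 21% of all genes were lower, led by MCM5 (−1.16 and −1.05) and RRM2 (−1.26 and −0.68), which act in replication and nucleotide synthesis. Their summed level was 5210 to 5350 CPM in WT control and 1090 to 1150 CPM in WT etoposide of the DAXX series, and 5950 to 6040 CPM and 1460 to 1530 CPM in the ATRX series. In knockout control cells it was 3750 to 3860 CPM in DAXX_KO and 4710 to 4820 CPM in ATRX_KO. With etoposide it was 799 to 806 CPM in DAXX_KO and 1120 to 1250 CPM in ATRX_KO. The median responses of the list in the knockouts were −2.57 and −2.26, and its median interactions were 0.21 and 0.05. The part of the fall of proliferation genes in the changes of H2AX, CHEK1, PRKDC, MDC1 and RNF168 was not tested.

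**Figure D4:**
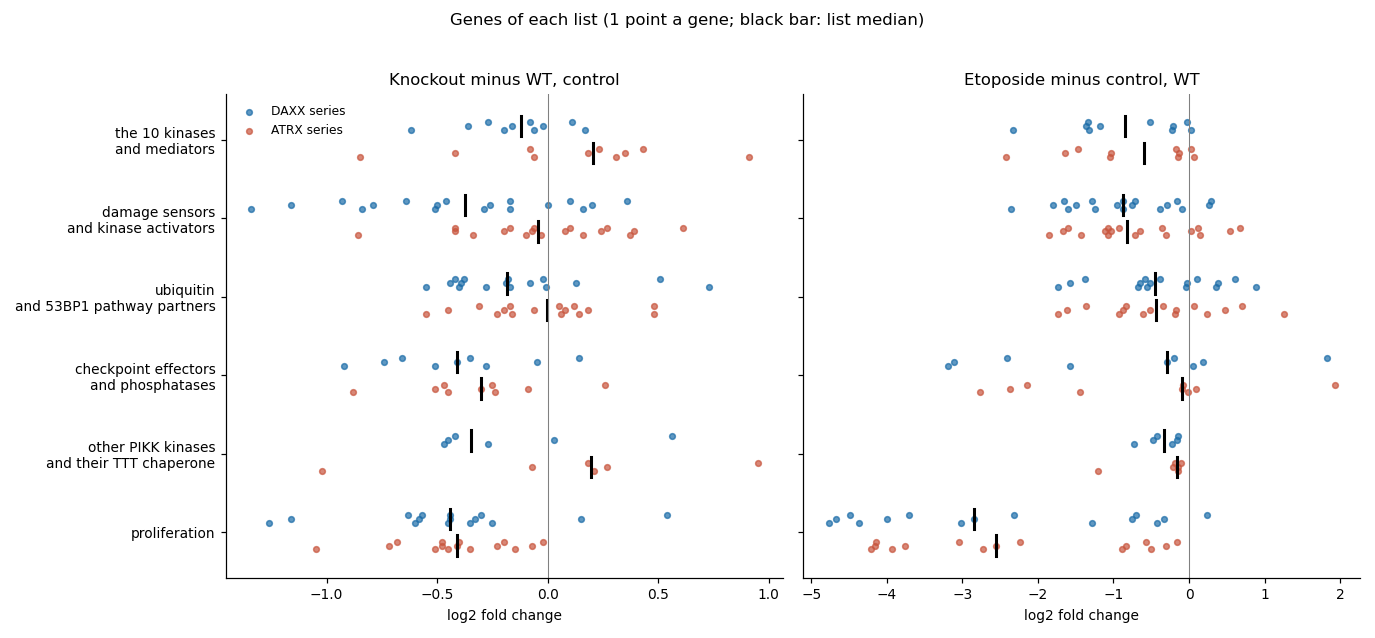
Log2 fold change (x axis) of each gene (1 point) of the 10 kinases and mediators and of 5 lists (y axis) in the DAXX series (blue) and the ATRX series (red), for knockout against WT in control (left) and etoposide against control in WT (right), with the list median as a black bar. The proliferation list had medians of −2.85 and −2.55 with etoposide in WT, and the 10 genes had medians of −0.85 and −0.60.

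The pattern of each of the 10 genes over the 24 libraries was compared with that of 15039 genes tested in both series, with each series centred on its own mean. These libraries share 8 groups and a common treatment, so the values are descriptions only. PRKDC was most like KNSTRN and TROAP (Pearson r = 0.98 for both), genes of the mitotic spindle, and CHEK1 was most like CDKN3 and HACD3 (0.97 for both). H2AX was most like MAP4K4 and SRSF3 (0.98 for both), RNF168 was most like ATP2B4 and CEP70 (0.98 for both), and MDC1 was most like ENSG00000187951 and CEP63 (0.96 for both). Among the 10 genes, PRKDC and H2AX (r = 0.96), MDC1 and RNF168 (0.96) and PRKDC and CHEK1 (0.93) were the most alike pairs. TP53BP1 was most like TFPI2 (0.96) and CSF3 (0.95), and ATR was most like ANKRD36C (0.91) and LRRC8D (0.90). The likeness was weaker for RNF8 (EPS15L1 0.83, TCOF1 0.82), ATM (ZNF708 0.82, NXPE3 0.80) and CHEK2 (RN7SL716P 0.71, CDH15 0.67).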

How the data were processed

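RNA-seq counts of 24 U87-T libraries were analysed, and groups came from the sample titles. The authors prepared QuantSeq 3′ libraries, aligned 75-base single-end reads with STAR to hg19 and estimated counts with RSEM (v1.2.12 in the paper and 1.2.3 in the submitters' processing notes) on Ensembl GRCh37. The deposited values are expected counts, given as whole numbers and without normalization. Gene symbols came from GENCODE release 44 on GRCh37, which matched 55501 IDs (98.8% of counts).

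Counts were tested with edgeR 4.0.16 in R 4.3.3 (quasi-likelihood, TMM factors 0.939 to 1.1, filterByExpr with a minimum count of 10 and total of 15), in 1 model of 12 libraries and 4 groups a series, with 15247 and 16371 genes tested. Differences between series used all 24 libraries. Benjamini-Hochberg adjustment ran over all genes tested, with calls at an FDR of 0.05. The standard error (SE) is that implied by the F statistic, and intervals are the 95% intervals of the fit. The paper's reporting summary says that experiments were done in biological duplicates or triplicates. Nothing in the labels says that replicates came from separate cultures, so p-values measure the spread between these libraries. Replicates differed beyond counting error (chi-square per degree of freedom 2.16 to 17.1 over 24 pairs). Alternatives were DESeq2 1.42.0, RLE factors, library totals alone, 2 other filters, a replicate block, other sets of libraries in the fit and each library left out.

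The 10 genes, the lists and the alternatives were chosen with earlier results of these data known. Named genes from the lists are the 3 with the largest change (the smaller of both series) among those called in the same direction in both series, for the knockout effect in control, the response of WT and the interaction. Genes with a like pattern are the 2 with the highest Pearson r on log2 CPM (prior count 2). Protein sequences were not used here, and 1 neighbouring gene is not reported here.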

Additional observations from a re-analysis of the deposited data

Results flagged for a closer look

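Among the tests of whether an effect differed between groups (the etoposide response between knockout and WT, and the knockout effect in control cells between series), 8 values of the 10 genes passed at an FDR of 0.05. Of all genes tested, 8.38% were higher and 5.79% lower in the DAXX interaction, and 8.36% and 7.64% in the ATRX interaction. For the knockout effect between series, 17% were higher and 17.2% lower. The WT response and the interaction compared between series were called for 0 of the 10 genes with edgeR. The response of H2AX to etoposide differed between DAXX_KO and WT by 0.83 ± 0.22 (SE, edgeR adjusted p = 0.0164), and that between ATRX_KO and WT by 1.21 ± 0.21 (SE, adjusted p = 0.00124). In ATRX_KO the responses of MDC1 (0.82 ± 0.20 (SE), adjusted p = 0.0113) and RNF168 (0.88 ± 0.16 (SE), adjusted p = 0.00191) also differed from those in WT. The knockout effect in control cells was lower in the DAXX series than in the ATRX series for TP53BP1 by −0.80, for RNF168 by −0.54, for RNF8 by −0.47 and for ATR by −0.37. The H2AX call for DAXX_KO was lost without etoposide replicate 2 of WT (edgeR adjusted p = 0.0621). With library totals alone the RNF8 and ATR calls between series were lost (edgeR adjusted p = 0.0809 and 0.182). The ATR call was also lost when single control libraries were left out. With 3 libraries in each group, no group was large enough to be examined for a single library standing apart.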

How the results depend on the processing

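Of 1020 log2 fold changes of the 10 genes under other settings, 995 kept their side of the threshold, 11 lost a call and 14 gained one. With each library left out in turn, 2124 of 2160 did so, 24 lost a call and 12 gained one. None changed sign with a call in either fit. The count of genes called among the 10 for DAXX_KO against WT with etoposide, 1, was 0 with DESeq2, with RLE factors, without a filter and with only the compared groups, and 2 with library totals alone. Leaving out 1 library gave 0 to 2 for that count, 1 to 3 for DAXX_KO against WT in control (2 with all libraries) and 0 to 2 for the DAXX interaction (1 with all libraries). Over all genes, the count for the interaction between series, 500, was 751 with DESeq2 and 752 without a filter, that for the WT response between series, 526, was 279 to 707 with 1 library left out, and that for the WT control libraries, 2206, was 1106 to 2447. The cause was not tested. Deviations of libraries with equal replicate numbers had correlations of −0.216 to 0.0487 over 36 comparisons. Libraries with different numbers were not compared in this way, so these values cannot decide whether equal numbers mark pairs. With a replicate block the counts among the 10 were unchanged (6 and 5 for the response of WT in the DAXX and ATRX series, 1 and 3 for the interactions). The depth, at 6928950 to 13298557 counts a library, limits MDC1 most, whose lowest count was 45.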
